A study of Homo sapiens with 12 samples.

Results

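The ubiquitin-specific proteases (USPs) are the largest family of human deubiquitinases, the enzymes that take ubiquitin off other proteins. Members were selected by gene symbol: every probe set with a single annotated gene whose symbol is USP followed by a digit, with pseudogenes left out. This gave 53 probe sets of 33 genes, of 11963 genes that at least 1 single-gene probe set reads on the array. Of the 33 genes, 25 (35 probe sets) were bright enough to be tested. The family was proposed with earlier results of the same arrays known, so its counts in the eIF4E against IgG comparison are a description and carry no test of the family. USP6NL meets the symbol rule but encodes a RAB5 GTPase-activating protein and no protease. It stays in the counts and is named where it matters.

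RNA bound to eIF4E, a translation initiation factor that grips the 5′ cap of messengers, was collected from MDA-MB-231 cells with an antibody and hybridised to Affymetrix arrays (RIP-chip), with control IgG precipitates as the background. MDA-MB-231 is an established human triple-negative breast cancer line of mesenchymal type. The 4 groups hold 3 arrays each: eIF4E precipitates of cells lysed 6 h after 2 Gy of X-rays, eIF4E precipitates of untreated cells, IgG precipitates of irradiated cells and IgG precipitates of untreated cells. All groups come from that 1 line, and the design text calls the replicates biological.

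Ubiquitin is attached to proteins by a chain of enzymes, singly or as chains, and the type of chain sends a protein to the proteasome, moves it between membranes or changes its partners. USPs cut the bond between ubiquitin and the target or between ubiquitins, with a cysteine in their active site, and many depend on a partner protein for activity or location. Several members act at damaged DNA or on ubiquitylated histones, others at the proteasome, on endosomes and cell surface receptors, in the spliceosome or in interferon signalling.

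The stretch around the start of transcription is shown for the members whose values the results turn on. The cap that eIF4E grips sits at the 5′ end of the messenger. Short pyrimidine runs at that end mark the TOP messengers, such as those of ribosomal proteins. The array signals do not measure these stretches. The sequences are RefSeq's of GRCh38.p14, 5′ to 3′ on the strand of the gene, from 40 bases before to 10 bases after the listed start. Capitals mark the first 10 transcribed bases. The first 2 genes were higher with eIF4E, the next 4 were lower, and the last 2 did not pass the threshold.
USP21 (chr1:161159460-161159509, plus strand): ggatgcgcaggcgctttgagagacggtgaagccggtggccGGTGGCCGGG
USP39 (chr2:85602821-85602870, plus strand): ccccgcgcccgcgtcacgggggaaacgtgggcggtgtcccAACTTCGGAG
USP47 (chr11:11841932-11841981, plus strand): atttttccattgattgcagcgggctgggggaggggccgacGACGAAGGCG
USP8 (chr15:50424365-50424414, plus strand): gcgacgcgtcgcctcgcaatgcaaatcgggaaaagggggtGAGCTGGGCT
USP12 (chr13:27171802-27171851, minus strand): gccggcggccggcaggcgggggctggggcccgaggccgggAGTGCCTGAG
USP34 (chr2:61471078-61471127, minus strand): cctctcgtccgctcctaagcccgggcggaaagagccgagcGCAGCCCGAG
USP3 (chr15:63504553-63504602, plus strand): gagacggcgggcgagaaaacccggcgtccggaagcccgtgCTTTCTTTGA
USP46 (chr4:52659292-52659341, minus strand): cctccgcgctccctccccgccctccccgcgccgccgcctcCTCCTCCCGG

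Of the 25 tested members, 21 had a listed start, and where several were listed (4 members) the first was used. USP9X, USP18, USP24 and USP48 are named only. A C followed by 4 pyrimidines at the listed start was found in 2 of 21 members, USP3 and USP46 (9.52%), against 4.04% of 27305 listed genes. Neither USP3 nor USP46 was higher with eIF4E by its brightest probe set. In the 300 bases around the start, the SP1 box GGGCGG, searched on both strands, occurred in 17 of 21 members (81.0%) and in 44.6% of all genes. The ETS motif CCGGAAG occurred in 6 members (28.6%) and in 10.7% of all genes, and CCAAT in 6 members (28.6%) and in 35.7% of all genes. TATAAA was found in 1 member, USP16 (4.76%), and in 11.95% of all genes. The median GC content of these windows was 72.0% for the members and 58.3% for all listed genes. The 27305 listed genes were not limited to genes tested on the array, while the members were, so the 2 sets are unlike. These matches describe the letters of the window and no binding of a factor.

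Values are deposited signals, linear intensities scaled so that each array has the same trimmed mean. They are therefore shares of what each array detected and hold no absolute amount of RNA. RNA of the whole cells was not analysed here, so how much of a messenger the cells hold and how much of it was bound cannot be told apart. Differences are on the log2(signal + 16) scale with the SE of limma's fit over all 12 arrays, and adjusted p-values are limma's, adjusted with Benjamini-Hochberg over 7178 genes. A gene passed at an adjusted p under 0.05.

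Log2 signals of replicate arrays correlated at 0.956 to 0.991 within groups, and 0 pairs of arrays were identical. The actin 3′ to 5′ signal ratio was 1.33 to 1.53 on eIF4E arrays and 2.96 to 5.38 on IgG arrays, and the signal of the Alu repeat probe set was 13482 to 18476 on eIF4E arrays and 36876 to 53246 on IgG arrays. The replicate 1 arrays of all 4 groups stood apart in the ratio of the spiked controls bioB and bioC (0.319 to 0.353, against 0.0113 to 0.0542 on the other 8 arrays). Of 7 mesenchymal markers 6 were above the filter, with summed signals of 27902 to 33646 on eIF4E arrays and 59840 to 77995 on IgG arrays. Luminal markers passed the filter in 4 of 7 cases, with sums of 11369 to 15323 on eIF4E arrays and 8639 to 15168 on IgG arrays. Markers of leukocytes, hepatocytes, neurons and muscle passed in 1 of 13 cases, and their median signal was 11.4 to 23.95 on eIF4E arrays and 6.02 to 26.4 on IgG arrays. The part of these array measures in the results was not tested.

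Over both treatments, most USP messengers gave a lower signal in eIF4E precipitates than in IgG precipitates. Of the 25 tested members, 2 were higher with eIF4E (USP21 and USP39), against 32.5% of all tested genes, and 19 were lower, against 38.2% of all tested genes. USP3, USP18, USP27X and USP46 did not pass in either direction. The median log2 difference of the members was -0.56, and that of all tested genes was -0.07. Below 0 were 20 of 25 members and 53.5% of all genes. All 6 eIF4E arrays lay above all 6 IgG arrays for 2 members (23.1% of all genes) and below them for 13 members (26.7% of all genes). At least 2-fold lower were 8 members, against 13.9% of all genes. With each array centred on its own median, the median of all genes moved by 0.11. That step shifts every gene of an array alike, so the members' median stayed 0.48 below that of all genes by construction. USP14, USP20, USP25 and USP6NL no longer passed under that scaling and USP3 passed as higher, so that 15 members were lower, against 33.1% of all genes under that scaling, and 3 higher, against 36.7%. Without the replicate 1 arrays, an alternative added after the data were seen, 18 members were lower (37.8% of all genes) and 2 higher (32.3% of all genes). With the filter raised to the 60th percentile, which leaves 19 members, their median was -0.95.

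**Figure D1:**
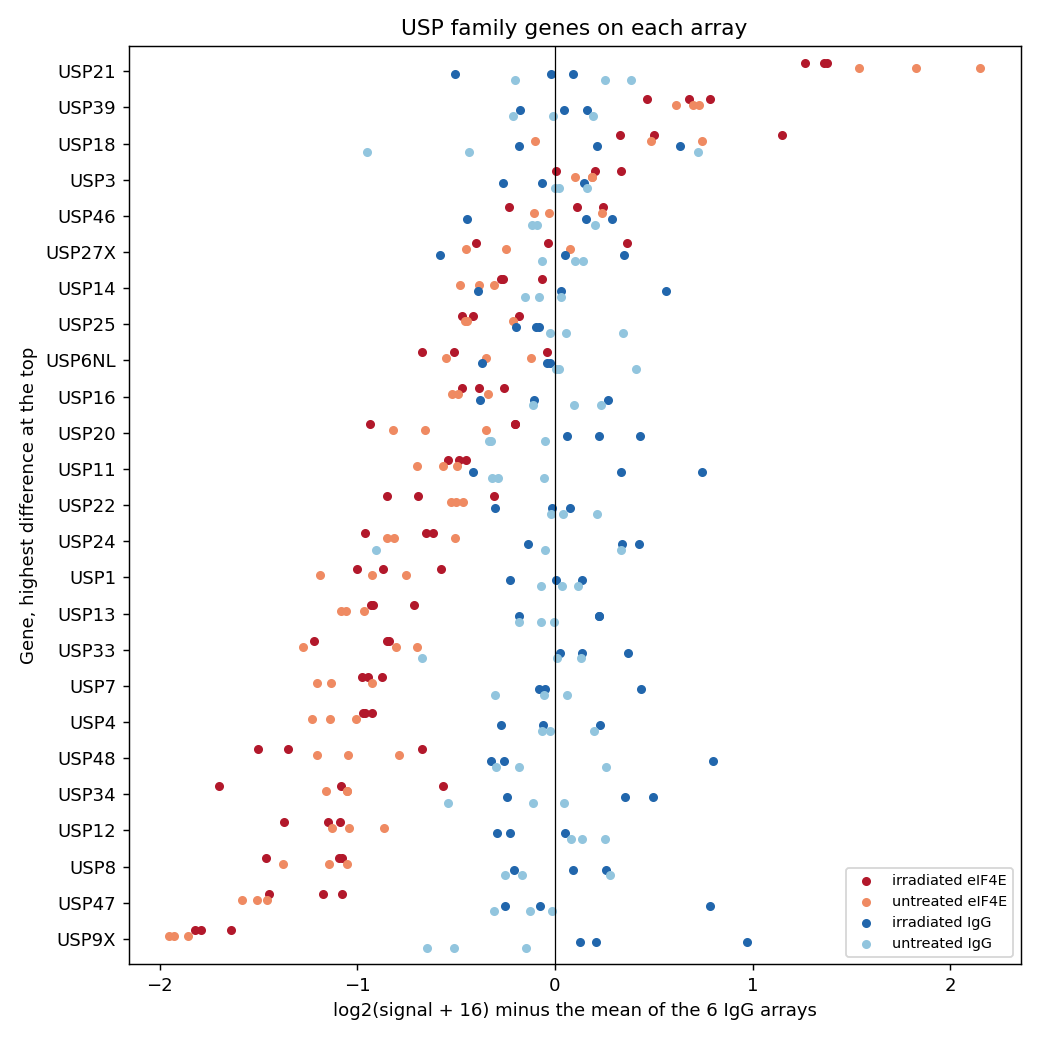
Log2 signal of the 25 tested USP genes on each of the 12 arrays, with 3 arrays in each group. Values are relative to the mean over the 6 IgG arrays of the same gene. On the 6 eIF4E arrays the median over these USP genes was between -0.70 and -0.52. The median over all 7178 tested genes, taken the same way, was between -0.11 and -0.04 on those arrays.

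The per-array medians were lower on each of the 6 eIF4E arrays. The family's median was -0.70 to -0.52 on the 6 eIF4E arrays and -0.06 to 0.05 on the 6 IgG arrays, relative to the mean of the IgG arrays. That reference holds the IgG medians near 0 by construction.

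The higher members come first. USP21, which removes ubiquitin from histone H2A among other targets, had signals of 279, 299 and 303 in irradiated eIF4E precipitates and 340, 419 and 528 in untreated eIF4E precipitates. In irradiated IgG precipitates it had 105, 114 and 70.3, and in untreated IgG precipitates 144, 130 and 90.5. Every eIF4E array was above every IgG array, and within the eIF4E arrays the untreated ones were the highest. The log2 difference was 1.59 ± 0.16 (SE, adjusted p = 1.67e-07 in limma), a 3.00-fold higher signal. USP21 is read by 1 probe set of the type whose probes can also match other sequences, so the gene behind its signal is less certain. The only probe set of USP16 is of this type too, as is a fainter probe set each of USP12, USP14 and USP34.

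USP39 is a part of the spliceosome that has the protease fold but lacks its catalytic residues. It had signals of 1078, 860 and 1001 in irradiated eIF4E precipitates and 955, 1015 and 1038 in untreated eIF4E precipitates, against 545, 639 and 696 in irradiated IgG precipitates and 614, 532 and 711 in untreated IgG precipitates. The antibodies did not overlap and the treatments did. The difference was 0.66 ± 0.11 (adjusted p = 3.96e-05 in limma). USP4, the other tested member tied to splicing, where it acts on a U4 snRNP protein, went the other way, with 680 ± 56.1 in eIF4E precipitates and 1420 ± 185 in IgG precipitates (SD, n = 6 each) and a difference of -1.04 ± 0.11 (adjusted p = 2.00e-07 in limma).

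**Figure D2:**
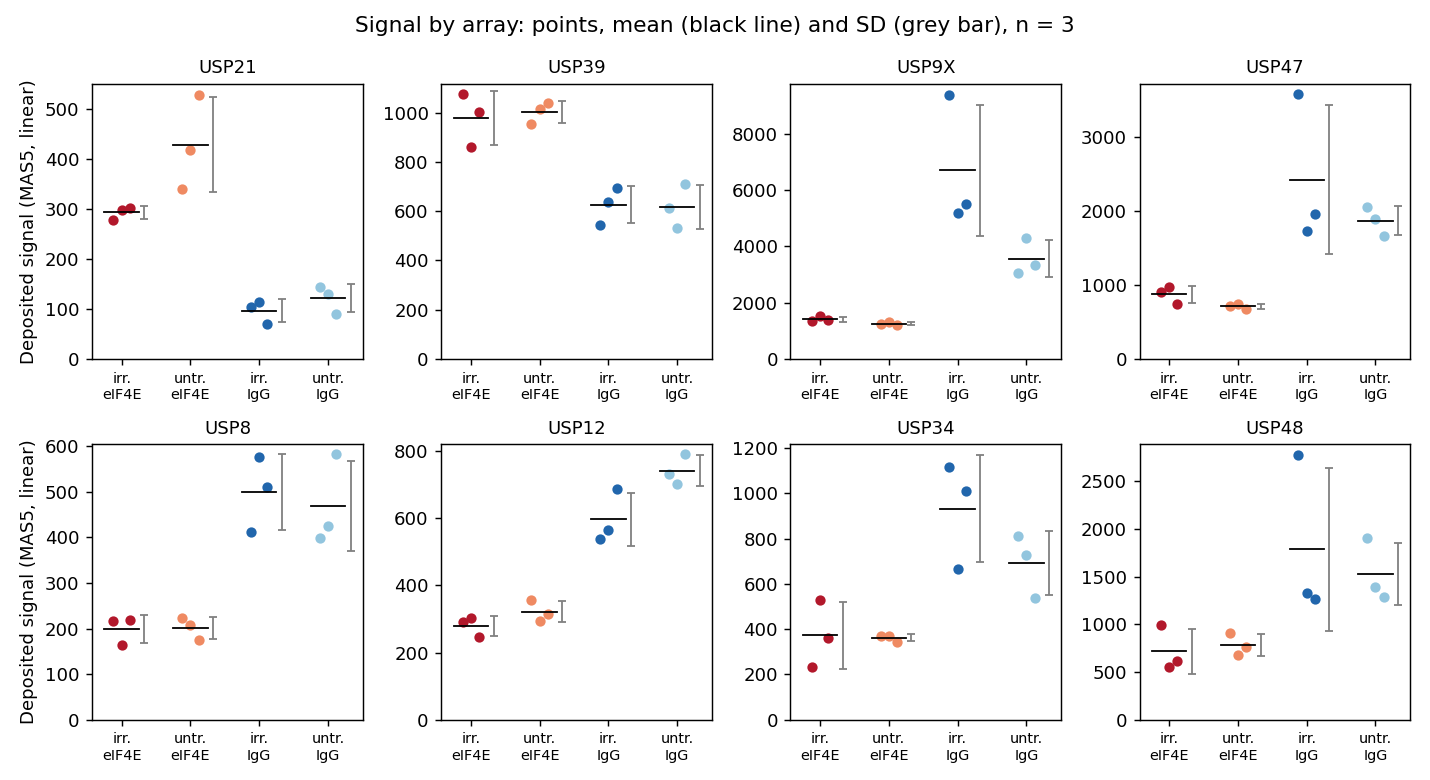
Signal (linear intensity) on each of the 12 arrays for the 8 USP genes with the largest differences in either direction over both treatments, 3 arrays for each of the 4 groups. USP21 and USP39 lie higher on all 6 eIF4E arrays, and the other 6 genes lie lower on all 6 eIF4E arrays than on any IgG array.

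Among members that act on membrane traffic, receptors and organelles, 5 of 6 tested were lower with eIF4E, against 38.2% of all tested genes. USP9X, an X-linked protease of many targets that include endocytic and survival proteins, showed the largest difference of the family. Its signals were 1338, 1520 and 1369 in irradiated eIF4E precipitates and 1244, 1304 and 1221 in untreated eIF4E precipitates. They were 9372, 5203 and 5518 in irradiated IgG precipitates and 3042, 4303 and 3350 in untreated IgG precipitates. The eIF4E arrays lay close together, and the IgG arrays lay far above them with replicate 1 of the irradiated IgG group as the highest. The difference was -1.83 ± 0.13 (adjusted p = 6.32e-09 in limma), a 3.56-fold lower signal, and without the replicate 1 arrays it was -1.73.

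USP8, which works on endosomes and decides the fate of internalised receptors such as that of epidermal growth factor, had 215, 164 and 218 in irradiated eIF4E precipitates and 223, 208 and 175 in untreated eIF4E precipitates. Its IgG signals were 412, 576 and 511 in irradiated cells and 398, 425 and 583 in untreated cells. No IgG array reached down to an eIF4E array, and the difference was -1.20 ± 0.14 (adjusted p = 7.87e-07 in limma).

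USP12, which needs the WD repeat protein WDR48 for activity, had 290, 304 and 246 in irradiated eIF4E precipitates and 357, 294 and 314 in untreated eIF4E precipitates, against 538, 564 and 687 in irradiated IgG precipitates and 730, 703 and 792 in untreated IgG precipitates. The difference of this probe set was -1.11 ± 0.11 (adjusted p = 1.57e-07 in limma). A dim second probe set of USP12, under the filter, lay at 15.1 to 45.7 with eIF4E and at 4.33 to 23.6 with IgG, the other way round. When both were averaged, the difference was -0.13 and did not pass (adjusted p = 0.422 in limma). The direction of USP12 therefore rests on its bright probe set.

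USP33 and USP20 are close relatives that act on receptors of the cell surface. USP33 had 1539 ± 245 in eIF4E precipitates and 3020 ± 651 in IgG precipitates (SD, n = 6 each), with a difference of -0.95 ± 0.14 (adjusted p = 1.95e-05 in limma) and no overlap. USP20 was dim, at 46.1 to 87.2 with eIF4E and 78.1 to 144 with IgG. Its arrays overlapped, and its difference of -0.53 ± 0.19 (adjusted p = 0.0217 in limma) no longer passed under 6 alternatives, among them the omission of replicate 1 of the irradiated eIF4E group (-0.41, adjusted p = 0.0664 in limma).

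USP46, a near relative of USP12 that also pairs with WDR48, was the 1 gene with probe sets above the filter on both sides of 0. Its brighter probe set read 402, 365 and 284 in irradiated eIF4E precipitates and 400, 330 and 312 in untreated eIF4E precipitates, against 243, 416 and 378 in irradiated IgG precipitates and 309, 315 and 391 in untreated IgG precipitates. These arrays overlapped throughout (0.04 ± 0.15, adjusted p = 0.829 over all probe sets in limma). The second probe set read 211, 303 and 184 in irradiated eIF4E precipitates and 207, 270 and 248 in untreated eIF4E precipitates, against 375, 409 and 502 in irradiated IgG precipitates and 389, 444 and 480 in untreated IgG precipitates. There the antibodies did not overlap (-0.84 ± 0.14, adjusted p = 4.61e-05 over all probe sets in limma). Which of the 2 follows the messenger of USP46 was not tested.

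Of 11 tested members tied to DNA damage, histones and chromatin, 8 were lower with eIF4E (38.2% of all tested genes) and 1, USP21, was higher (32.5% of all tested genes). USP47, which acts on the base excision repair polymerase POLB, had 909, 972 and 749 in irradiated eIF4E precipitates and 719, 745 and 680 in untreated eIF4E precipitates, against 3580, 1733 and 1964 in irradiated IgG precipitates and 2052, 1895 and 1667 in untreated IgG precipitates. All IgG arrays were above all eIF4E arrays, and the highest was again replicate 1 of the irradiated IgG group. The difference was -1.38 ± 0.15 (adjusted p = 4.01e-07 in limma), and without the replicate 1 arrays it was -1.20. USP48, which removes ubiquitin from histone H2A at sites marked by BRCA1, had 989, 548 and 611 in irradiated eIF4E precipitates and 910, 678 and 757 in untreated eIF4E precipitates. Its IgG signals were 2770, 1325 and 1263 in irradiated cells and 1901, 1393 and 1287 in untreated cells. The arrays did not overlap, with replicate 1 the highest of each group, and the difference was -1.10 ± 0.19 (adjusted p = 7.78e-05 in limma).

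USP1, which with WDR48 takes ubiquitin off FANCD2 and PCNA, and USP7, which acts on p53 and its ligase MDM2, were lower with both of their probe sets. USP1 had 3773 ± 553 in eIF4E precipitates and 6956 ± 632 in IgG precipitates by its brighter probe set (SD, n = 6 each; difference -0.89 ± 0.11, adjusted p = 1.32e-06 in limma). USP7 had 485 ± 43.4 in eIF4E precipitates and 1002 ± 183 in IgG precipitates (difference -1.01 ± 0.12, adjusted p = 8.50e-07 in limma). For both genes the eIF4E and IgG arrays did not overlap.

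The histone H2B protease of the SAGA coactivator, USP22, was lower as well (1763 ± 229 in eIF4E precipitates and 2600 ± 298 in IgG precipitates, SD, n = 6 each), at -0.56 ± 0.11 (adjusted p = 0.000219 in limma). This call was lost when its 3 dim probe sets were averaged in (-0.18, adjusted p = 0.344 in limma). USP11, which acts on BRCA2, was lower by -0.54 ± 0.15 (adjusted p = 0.00441 in limma), with 613 to 731 on eIF4E arrays and 750 to 1693 on IgG arrays. USP24, which acts on the damage sensor DDB2, and USP16, an H2A protease, passed with overlapping arrays (-0.73 ± 0.19 and -0.41 ± 0.12).

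The 2 remaining chromatin members did not pass. USP3, a protease of histones H2A and H2B, had 760 ± 58.7 in eIF4E precipitates and 676 ± 72.1 in IgG precipitates (SD, n = 6 each). Its difference was 0.17 ± 0.10 (adjusted p = 0.155 in limma), and it passed as higher when arrays were centred on the median (0.28) or quantile normalized (0.26). USP27X, a relative of USP22, had a difference of -0.12 ± 0.21 (adjusted p = 0.631 in limma).

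Both tested members that act on free ubiquitin chains or at the proteasome were lower, as were 38.2% of all tested genes. USP13, a relative of the chain-disassembling enzyme USP5, had 444 ± 43.0 in eIF4E precipitates and 873 ± 116 in IgG precipitates (SD, n = 6 each), a difference of -0.95 ± 0.11 (adjusted p = 6.47e-07 in limma). USP14, which sits on the proteasome and trims chains there, overlapped between antibodies by its brighter probe set and differed by -0.30 ± 0.13 (adjusted p = 0.0467 in limma). That call was lost under 12 of the alternatives, without replicate 1 of the irradiated IgG group among them (-0.17, adjusted p = 0.114 in limma). The other probe set of USP14 differed by -0.78 ± 0.11.

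Of the members of interferon and inflammatory signalling, USP18, which removes the ubiquitin-like ISG15, was dim and did not pass (47.6 to 135 with eIF4E and 19.2 to 96.7 with IgG; 0.52 ± 0.29, adjusted p = 0.116 in limma). Without replicate 2 of the untreated IgG group it passed as higher (0.75, adjusted p = 0.0144 in limma). USP18 has a near-identical relative, USP41, so its signal is uncertain. USP25, which acts in inflammatory receptor signalling, was lower with overlapping arrays (-0.36 ± 0.11, adjusted p = 0.00714 in limma).

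USP34, a large protease that acts on axin in Wnt signalling, had 232, 527 and 363 in irradiated eIF4E precipitates and 372, 372 and 344 in untreated eIF4E precipitates. In irradiated IgG precipitates it had 1118, 665 and 1012, and in untreated IgG precipitates 813, 728 and 536. The highest eIF4E array lay just under the lowest IgG array. The difference was -1.10 ± 0.18 (adjusted p = 3.41e-05 in limma). The other probe set of USP34 above the filter read -0.60 ± 0.17. The mean over all its probe sets was -0.60 (adjusted p = 0.00221 in limma), and in untreated cells that mean was -0.29 and did not pass (adjusted p = 0.261 in limma). USP6NL, the non-protease, was lower by -0.37 ± 0.15 with overlapping arrays (adjusted p = 0.0395 in limma), and this call was lost under 10 alternatives (adjusted p = 0.0678 to 0.146 in limma).

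**Figure D3:**
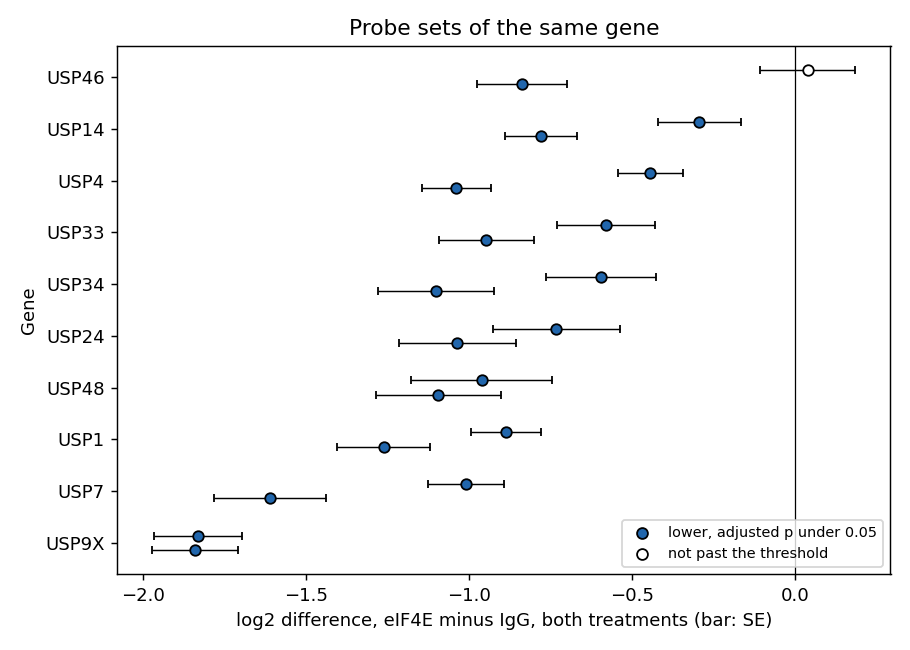
Log2 difference of eIF4E minus IgG over both treatments for USP probe sets above the filter, with the SE of the fit over all 12 arrays as bars, grouped by gene. Of the 10 genes with 2 probe sets, 9 have both below 0 and past the threshold, and USP46 has 1 near 0 and 1 at -0.84. Of all probe sets 38.3% were lower, and the share of all genes lower with both was not counted.

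Taken by probe set, 2 of 35 were higher with eIF4E, against 31.5% of all probe sets, and 29 were lower, against 38.3% of all probe sets. The sizes differed between probe sets of a gene. Those of USP9X agreed at -1.84 and -1.83, those of USP7 read -1.61 and -1.01, and those of USP4 read -1.04 and -0.44.

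Each treatment by itself gave a like picture, with fewer calls from 3 arrays a group. In irradiated cells 2 members were higher with eIF4E (27.2% of all genes) and 15 were lower (32.3% of all genes), and the members' median difference was -0.71 against -0.06 for all genes. In untreated cells 2 members were higher (27.2% of all genes) and 14 were lower (31.7% of all genes), and the median was -0.52 against -0.08 for all genes. USP21 and USP39 were the higher members in both. Of the lower members, 12 were shared, which is 80.0% of those in irradiated cells and 85.7% of those in untreated cells. Over all tested genes the shared lower calls were 85.3% of those in irradiated cells and 87.0% of those in untreated cells. USP11, USP20 and USP24 passed only in irradiated cells and USP16 and USP25 only in untreated cells, while the test of the difference between treatments passed for none of these 5. Single arrays turned several of these calls. Without replicate 1 of the untreated IgG group USP24 passed in untreated cells (-0.86, against -0.51 with it). Without replicate 1 of the irradiated IgG group USP16 passed in irradiated cells (-0.45), USP11 moved there to -0.45 and USP20 did not pass there (-0.59). Without replicate 3 of the irradiated IgG group USP11 passed in untreated cells (adjusted p = 0.0419 in limma) and USP20 did not pass in irradiated cells. USP20 also failed there without replicate 1 of the irradiated eIF4E group (-0.44) or replicate 3 of the untreated eIF4E group. USP16 and USP25 did not pass in untreated cells without replicate 3 of the untreated IgG group. The 3 members with the smallest p in irradiated cells were USP9X (-2.19 ± 0.19), USP12 (-1.05 ± 0.16) and USP47 (-1.39 ± 0.21). In untreated cells they were USP4 (-1.16 ± 0.15), USP9X (-1.48 ± 0.19) and USP21 (1.69 ± 0.22). The 2 treatments share no arrays in their differences, but their SEs and p-values share 1 estimate of the spread over all 12 arrays. USP4 had 711, 735 and 717 in irradiated eIF4E precipitates and 592, 693 and 632 in untreated eIF4E precipitates, against 1653, 1164 and 1350 in irradiated IgG precipitates and 1347, 1620 and 1388 in untreated IgG precipitates.

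Irradiation itself moved no member past the threshold. Within eIF4E precipitates, 0 of 25 members passed limma's test, as did 0% of all genes. At an unadjusted p under 0.05 stood 1 member, USP21, and 1.14% of all genes. Members' differences, irradiated minus untreated, ran from -0.50 to 0.28. USP21 had the smallest p, at -0.50 ± 0.22 (unadjusted p = 0.0391, adjusted p = 1.00 in limma), and its 3 irradiated eIF4E arrays were all below the 3 untreated ones. The arrays of the treatments lay apart in this way for 1 member downward, USP21, and for 5 upward. The share over all genes was not counted, so these counts carry no result about the members. USP47 followed at 0.28 ± 0.21 and USP12 at -0.19 ± 0.16, neither past the threshold.

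Within IgG precipitates 0 members and 0% of all genes passed limma's test, and at an unadjusted p under 0.05 stood 1 member, USP9X, and 6.62% of all genes. The members' differences ran from -0.31 to 0.87. USP9X was the highest, at 0.87 ± 0.19 (unadjusted p = 0.000306, adjusted p = 0.512 in limma). The 3 irradiated IgG arrays (9372, 5203 and 5518) were all above the 3 untreated IgG arrays (3042, 4303 and 3350). Arrays lay apart in this way for 2 members upward, USP9X among them, and for 3 downward. As the share over all genes was not counted here either, these counts carry no result about the members. Without replicate 1 of the irradiated IgG group the difference of USP9X was 0.60, and its adjusted p lay between 0.101 and 0.986 over all alternatives. The next smallest p belonged to USP11 at 0.44 ± 0.21, with 1693, 1272 and 750 in irradiated IgG precipitates and 819, 802 and 968 in untreated ones, and then to USP12 at -0.31 ± 0.16. USP11 moved to 0.18 without replicate 1 of the irradiated IgG group and to 0.76 without its replicate 3.

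The difference between both irradiation effects, eIF4E minus IgG, passed for 0 members and 0% of all genes in limma. An unadjusted p under 0.05 was found for 1 member, USP9X, and for 3.01% of all genes. Values ran from -0.71 to 0.30. USP9X stood at -0.71 ± 0.27 (unadjusted p = 0.0182, adjusted p = 0.999 in limma). USP33 (-0.40 ± 0.29) and USP34 (-0.44 ± 0.36) had the next smallest p and did not pass. Without replicate 1 of the irradiated IgG group USP9X was at -0.44 and USP34 at -0.29. USP33 was at -0.15 without replicate 1 of the untreated IgG group. USP34 was at -0.14 without replicate 1 of the irradiated eIF4E group, at -0.71 without its replicate 2 and at -0.27 without replicate 3 of the untreated IgG group. Without all replicate 1 arrays USP9X was at -0.30. USP33 had 1260, 1630 and 1643 in irradiated eIF4E precipitates and 1210, 1813 and 1680 in untreated eIF4E precipitates, against 3006, 3243 and 3818 in irradiated IgG precipitates and 1844, 3234 and 2976 in untreated IgG precipitates, with replicate 1 of the untreated IgG group the lowest of the IgG arrays.

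**Figure D4:**
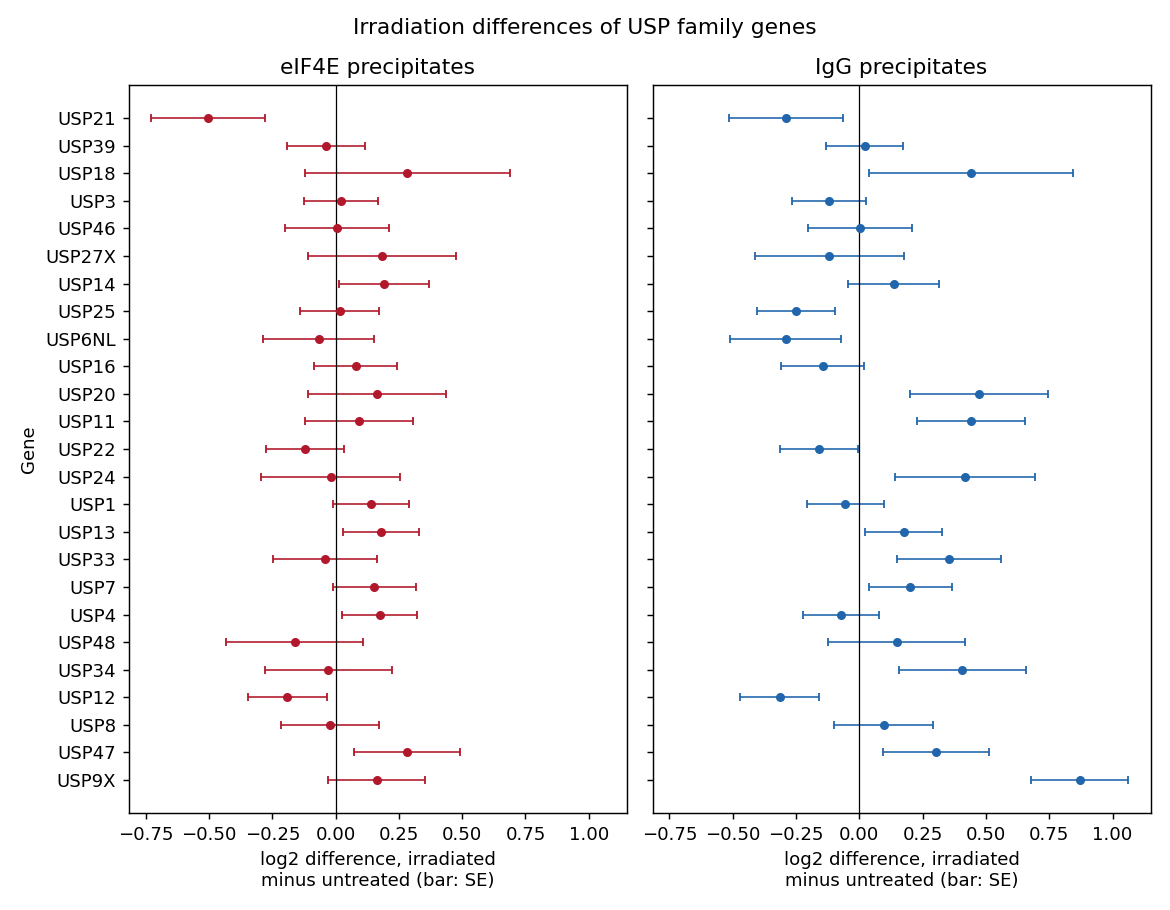
Log2 difference of irradiated minus untreated cells for each of the 25 tested USP genes within eIF4E precipitates and within IgG precipitates, with the SE of the fit as bars. No gene passed the threshold in either, and USP9X within IgG, at 0.87, lies farthest from 0.

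Deubiquitinases outside the family were read beside it, from a list of 36 genes of the OTU, UCH, Josephin, JAMM, MINDY and CYLD groups, of which 23 had a probe set and 16 were tested. Of these 16, 5 were higher with eIF4E (32.5% of all tested genes) and 4 were lower (38.2% of all tested genes), and the median difference was 0.00. OTUB1, which holds back ubiquitin-conjugating enzymes and cuts chains, was higher by 1.52 ± 0.13, and UCHL3, a hydrolase of small ubiquitin adducts, by 1.26 ± 0.14. COPS5, the metalloprotease of the COP9 signalosome, was higher by 0.84 ± 0.09. MINDY2 and OTUD4 were lower, at -1.60 ± 0.16 and -1.39 ± 0.10. The USP members' median was -0.56, and the distance between the lists was not tested.

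Of 11 listed USP partners and ubiquitin genes 6 were tested, of which 1 was higher with eIF4E (32.5% of all tested genes) and 4 were lower (38.2% of all tested genes). WDR48, the shared partner of USP1, USP12 and USP46, was lower by -0.76 ± 0.14 (adjusted p = 0.000126 in limma). GMPS, a partner of USP7, was lower by -0.75 ± 0.09, and G3BP1, a partner of USP10, by -0.91 ± 0.12. The ubiquitin gene UBB was lower by -0.58 ± 0.12. The SAGA subunit SGF29 was higher by 0.56 ± 0.17, and ENY2, of the same deubiquitinating module as USP22, did not pass (0.16 ± 0.11).

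The length of the gene on the genome, which the choice of members did not use, went with the antibody difference. The tested members are long genes, with a median span of 68342 bases in GRCh38.p14, against 31370 bases for all tested genes with a span. Spearman's rho between span and log2 difference was -0.51 over the 25 members and -0.47 over 7177 genes, across genes that share the same 12 arrays. In 5 bins of span that hold about equal numbers of genes, the median difference of all genes was 0.55, 0.20, -0.10, -0.36 and -0.67 from the shortest to the longest. In the longest bin all 9 members were lower with eIF4E (64.4% of all genes there), and in the next 7 of 10 members were lower (50.7% of all genes there). The 3 shorter bins hold 2 members each, with 0, 2 and 1 lower (14.6%, 23.3% and 38.1% of all genes there). USP21, the highest member, spans 6224 bases, and USP9X, the lowest, spans 151135 bases. The part of span in the family's difference was not tested.

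**Figure D5:**
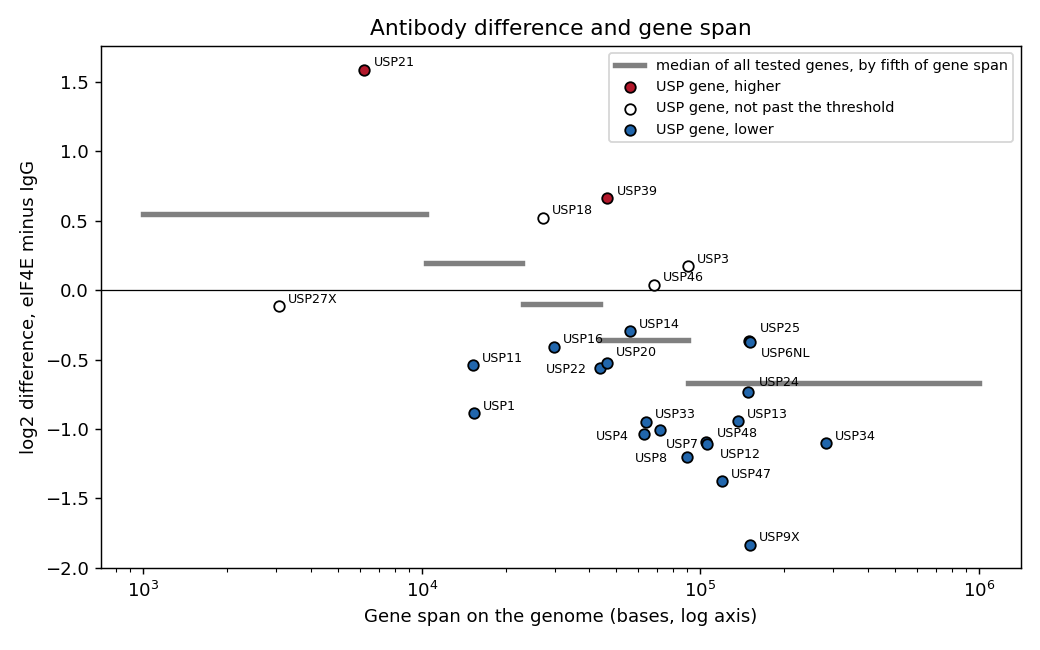
Log2 difference of eIF4E minus IgG over both treatments against the gene's span on the genome (bases, log axis) for the 25 tested USP genes, coloured by call, with the median of all tested genes in each of 5 bins of span as grey bars. USP9X, USP47, USP34, USP12 and USP48 lie at the long end below -1, and USP21, at 6224 bases, lies at 1.59.

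The 8 members under the filter, which is a mean signal of 57.4, are USP2, USP5, USP19, USP29, USP36, USP49, USP53 and USP9Y, and they were not tested. USP5, which recycles free ubiquitin chains, read 14.8 to 83.9 on eIF4E arrays and 19.0 to 115 on IgG arrays. USP19, which has an endoplasmic reticulum form, read 36.8 to 75.9 on eIF4E arrays and 9.40 to 113 on IgG arrays. Closest to the filter from above was USP18, given earlier. USP9Y is named only.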

How the data were processed

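RNA from 12 precipitates of MDA-MB-231 cells was hybridised to 1 array each. The deposited table holds an intensity per probe set and array on a linear scale, which the authors made with MAS5, per the submitters' processing notes (version not stated there). Nothing was renormalized. Amplification and labelled amounts are not given in the sources used here.

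Groups were taken from the sample titles. Of 22277 probe sets, the 62 controls, 1043 with several genes and 2108 without a gene were left out, which kept 19064 with a single symbol. USP15 was read only with other genes and is no member, and 1 pseudogene probe set was left out. Each gene was represented by its brightest probe set (an _x_at one if no other type existed), and genes under the 40th percentile of mean log2 signal were left out (a signal of 57.4). The model was fitted in R 4.3.3 with limma 3.58.1 on log2(signal + 16), with 4 group means over 12 arrays and eBayes with a trend, and this scale understates changes of dim genes. Fitting was tested on simulated data. Figures were drawn with matplotlib 3.10.9. The number of arrays limits the precision.

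The members, the role lists and the list of other deubiquitinases were chosen with earlier results of these data known. Every member may be named. Values of every array are given for up to 6 members per direction with the largest differences over both treatments. The members with the 3 smallest p of each other comparison and genes with probe sets on both sides of 0 are described as well. Roles are background knowledge.

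Same-numbered arrays were tested as pairs by correlating their deviations from the group means over genes. For irradiated against untreated eIF4E arrays the correlations were 0.374 (number 1), 0.208 (number 2) and 0.181 (number 3). A pairing of these arrays was inferred from the data alone and was not used in the main fit. All SEs and p-values of that fit treat the arrays as unpaired. The replicate block among the alternatives covers all 4 groups. In the other 5 group pairs the lowest of the 3 correlations was under 0.1, while number 1 correlated at 0.0956 to 0.303. Alternatives tried were the pseudocount (1 or 64), the filter (none, or the 60th percentile), quantile normalization or centring on the array median, eBayes with no trend, probe set means, the replicate block, only the groups compared, the omission of each array and, added after the data were seen, of every replicate 1 array.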

Additional observations from a re-analysis of the deposited data

How the results depend on the processing

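Calls of single USP genes were tried under up to 23 settings. The number of members past the threshold over both treatments was 21, and 18 to 21 when any 1 array was left out. Of all tested genes, 32.5% were higher and 38.2% lower in the main fit. In irradiated cells the number of members was 17 (16 to 18), with 27.2% of all genes higher and 32.3% lower. In untreated cells it was 16 (14 to 17), with 27.2% of all genes higher and 31.7% lower. Irradiation gave 0 members in every setting. With the replicate block the members' counts were 21, 17, 16 and 0, and 31 probe sets, so the block changed none of them. Over both treatments it gave 33.6% of all genes higher and 39.4% lower. The filter at the 60th percentile left 1 higher member in each of the 3 antibody comparisons, USP39, because USP21 lies under it. Of all genes past that filter, 37.0% were higher over both treatments, 32.6% in untreated cells and 32.9% in irradiated cells. The members' median of -0.56 became -0.47 with no filter and -0.95 with the stricter filter, since the filter sets which members are in it (32 with no filter, 25 in the report, 19 with the stricter one). It was -0.45 with arrays centred on their median, where that of all genes became 0.04, and -0.65 without the replicate 1 arrays, added after the data were seen. Leaving out 1 array gave -0.70 to -0.55. With probe sets averaged, USP12 was -0.02 in irradiated cells (adjusted p = 0.943 in limma) and its irradiation difference with eIF4E turned to 0.15, since a dim probe set of the opposite direction enters the mean. Using only the groups compared changes nothing over both treatments, where all arrays are in use. Dim members such as USP18 and USP20 lie near the filter, and their calls changed when 1 array was left out.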

Other observations

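The dimmest probe set of USP7, under the filter and not tested, read 9.34 to 55.0 on eIF4E arrays and 71.7 to 133 on IgG arrays, the same order as the bright probe sets of that gene.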
